A study of Mus musculus with 6 samples.

Results

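Mast cell and basophil genes were followed in early T cell progenitors, the most immature thymocytes, after loss of the E proteins E2A and HEB. The 10 genes were taken by symbol from the authors' deposited table, which holds 22609 genes, of which 16241 were tested. All 10 were found and all 10 had a p-value. They are Cpa3, Tpsb2, Cma1 and Mcpt8 (granule proteases), Fcer1a, Ms4a2 and Fcer1g (chains of the high-affinity IgE receptor), Cd200r3 (a surface receptor), Hdc (the enzyme that makes histamine) and Mitf (a transcription factor). The double knockout (dKO) group was labelled E2Afl/flHEBfl/flIL7RCre and had 3 libraries. The wild-type control group also had 3 libraries. Both groups were C57BL/6 cells of the fetal thymus, gated on CD44 and c-Kit and without lineage markers, CD25, CD4 or CD8. A YFP gate was added for dKO cells alone, so gate and genotype changed together and cannot be told apart. The Cre recombinase is driven from the Il7r locus and acts only in cells in which that locus has been active. The labels give neither the fetal age nor the lineage markers, nor whether each library came from its own animal or pool. The p-values therefore measure no more than the spread among these 6 libraries, and that spread may be technical.

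Mast cells and basophils are granulocytes of allergic and antiparasite responses. Both carry IgE on a receptor made of an alpha chain that binds IgE, a beta chain that amplifies the signal and a gamma chain with an activation motif. When antigen links the receptors, the cells release granules that hold histamine, proteoglycan and proteases. Mast cells keep c-Kit, the receptor for stem cell factor, throughout life, and mature basophils mostly lose it. Cpa3 is also known from early mouse T cell progenitors, and Fcer1g from natural killer (NK) cells and macrophages, so neither gene is restricted to mast cells or basophils.

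Depth, taken as the summed means times the size factor of each library, was about 24.3 to 27.0 M reads per dKO library and 18.2 to 22.6 M per control library. The deleted genes were lower in the authors' deposited table: Tcf3, which encodes E2A, averaged 363.8 in dKO and 8931 in control, and Tcf12, which encodes HEB, averaged 562 in dKO and 3845 in control. Kit itself, the gate marker, averaged 19067 in dKO and 14094 in control in the authors' deposited table, and was 1.35-fold higher (adjusted p = 0.00227). Of 11 tested markers of early T cell progenitors, 3 rose, 7 fell and 1, Cd44, did not pass. Among those that fell, Lyl1 and Hhex encode transcription factors of immature progenitors. Lyl1 averaged 99.1 in dKO and 547 in control, and Hhex averaged 454 in dKO and 1478 in control, in the authors' deposited table. Values are normalised counts throughout, that is reads divided by a size factor for each library. They are not divided by gene length, so levels are compared between groups and not between genes. The authors deposited 1 mean per group, and values per library are given where a mean splits into whole reads of 3 libraries in only 1 way, in the same order of libraries throughout. For dKO means above 200, random values also gave a single split in 11.7% of cases, and above 350 in 19.7%, so the library values of Tpsb2, Cd200r3, Cma1, Alox5, Il13 and Il4 in dKO rest on the split being the only one, and not on a split having been found.

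Of the 10 genes, 6 were higher in dKO, 2 were lower and 2 did not pass. A gene was called where the adjusted p given by the authors was under 0.05, and over all tested genes this held for 29.0%, with 15.1% higher and 13.8% lower. Among the 10797 genes within the range of abundance of the 10, 18.9% were called higher and 17.7% lower. The median log2 change of the 10 was 1.30, against -0.02 over all tested genes. Tpsb2, Cd200r3, Ms4a2, Mcpt8, Hdc and Fcer1g were the genes that rose, Cpa3 and Cma1 those that fell. The RNA came from sorted cells in bulk, so a change in the number of cells of a type and a change in RNA per cell cannot be told apart. The 10 genes were chosen with earlier results of these data known, and the counts describe them without a test of the group.

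**Figure D1:**
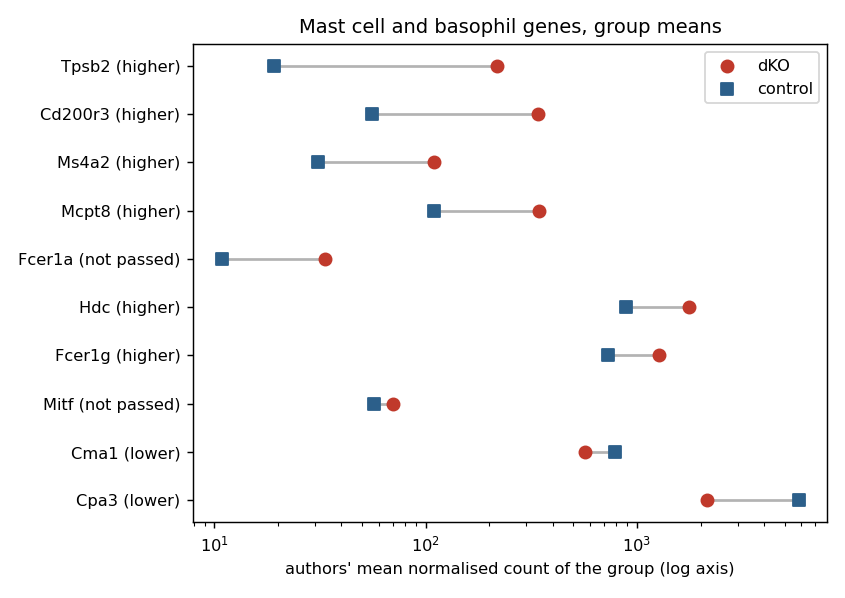
Authors' mean normalised count of each of the 10 genes on a log axis, circles for dKO and squares for control, with the call beside each name. The circle lies to the right of the square for 8 genes and to its left for Cma1 and Cpa3.

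E proteins bind DNA at the E-box, CANNTG, and for that reason the start regions of 2 members that fell and 2 that rose are shown. RefSeq entries on GRCm38.p6, a later build than the mm9 of the submitters' processing notes, matched 9 of the 10 members by symbol, with 11 entries in all since Mitf has 3. Tpsb2 had no entry. The lines below give the 250 bases before the annotated start, 5′ to 3′ on the strand of the gene, with each CANNTG in capitals. They are for Cpa3 at chr3:20242182-20242431 (- strand) and Cma1 at chr14:55944676-55944925 (- strand), the genes that fell, and for Cd200r3 at chr16:44943428-44943677 (+ strand) and Mcpt8 at chr14:56085198-56085447 (- strand), which rose.
Cpa3: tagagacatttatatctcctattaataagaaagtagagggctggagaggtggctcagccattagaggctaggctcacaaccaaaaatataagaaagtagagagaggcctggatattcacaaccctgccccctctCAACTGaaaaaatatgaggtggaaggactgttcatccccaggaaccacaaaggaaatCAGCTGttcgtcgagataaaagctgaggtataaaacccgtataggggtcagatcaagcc
Cma1: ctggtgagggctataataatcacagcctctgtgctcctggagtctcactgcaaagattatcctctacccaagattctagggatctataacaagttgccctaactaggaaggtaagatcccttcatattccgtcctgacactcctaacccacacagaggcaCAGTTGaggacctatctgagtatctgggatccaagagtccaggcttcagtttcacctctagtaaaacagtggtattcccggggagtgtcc
Cd200r3: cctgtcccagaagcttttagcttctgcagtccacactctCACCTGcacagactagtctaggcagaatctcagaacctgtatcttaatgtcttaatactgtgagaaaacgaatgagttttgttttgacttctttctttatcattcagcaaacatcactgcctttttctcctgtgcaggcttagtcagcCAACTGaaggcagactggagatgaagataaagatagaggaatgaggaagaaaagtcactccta
Mcpt8: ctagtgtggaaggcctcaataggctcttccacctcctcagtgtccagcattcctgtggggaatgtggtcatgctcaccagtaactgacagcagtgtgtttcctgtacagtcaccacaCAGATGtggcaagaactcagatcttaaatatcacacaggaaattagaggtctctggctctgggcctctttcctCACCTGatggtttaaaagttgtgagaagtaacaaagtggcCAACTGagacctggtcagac

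Cpa3 has 2 E-boxes in this window, Cma1 has 1, Cd200r3 has 2 and Mcpt8 has 3. E-boxes were present in both genes that fell and in both that rose. At least 1 CANNTG stood in 8 of the 11 member entries (72.7%), against 66.2% of 32851 start regions of the same length. Ms4a2 had none. The variant CAGCTG stood in 2 entries, Cpa3 and Fcer1a, against 13.0% of all start regions. The variant CAGGTG stood in 3 entries, against 17.2% of all start regions. GATA, searched on both strands and free to overlap the other words, stood in all 11 entries, against 53.6% of all start regions. Those entries come from 9 members, Mitf with several. All start regions were used without matching for base composition, so the difference in GATA is not read as enrichment. The E-box reads alike on both strands. A match only says that the letters are there, and no binding was measured in these libraries.

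The granule proteases moved in both directions. Cpa3, the carboxypeptidase of mast cell granules, averaged 2147 in dKO and 5824 in control in the authors' deposited table, and was 2.71-fold lower in dKO (adjusted p = 6.83e-37). Its abundance did not allow values per library to be recovered. Cma1, a chymase of connective tissue mast cells, averaged 565 in dKO and 784 in control in the authors' deposited table, and was 1.39-fold lower. That fall lay close to the threshold (adjusted p = 0.0466 from the authors' deposited table). The dKO libraries had 515, 644 and 537 normalised counts of Cma1, and the control libraries could not be separated. All 3 recovered dKO values lay below the control mean.

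Tpsb2, a tryptase of mast cell granules, had the largest fold of the 10. It had 276, 223 and 152 normalised counts in the dKO libraries of size factor 1.04, 1.08 and 1.16, against 32.8, 2.10 and 22.5 in the control libraries of size factor 0.823, 0.952 and 1.02. Every dKO library lay above every control library. The means were 217 ± 61.9 in dKO and 19.1 ± 15.6 in control (SD, n = 3 each). The rise was 11.4-fold (adjusted p = 1.85e-10 from the authors' deposited table). Leaving out the control library with size factor 0.823 gave a 17.7-fold rise, and the rise ranged from 7.86-fold to 13.1-fold without any other library. Tpsb2 lies beside the related tryptase gene Tpsab1, and the gene counter is not given in the sources used here, so reads of one may have been counted for the other. Tpsab1 averaged 7.78 in dKO and 2.83 in control and did not pass (adjusted p = 0.682 from the authors' deposited table).

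Mcpt8, the protease that marks mouse basophils, averaged 342 in dKO and 110 in control in the authors' deposited table, and was 3.12-fold higher (adjusted p = 4.57e-08). Its means could be split into whole reads in 2 ways in each group. The dKO libraries held either 309, 311 and 407 or 309, 658 and 60.6 normalised counts. The control libraries held either 12.1, 0 and 317 or 154, 103 and 72.2. The groups did not overlap under 1 of the 4 combinations and overlapped under the other 3. Leaving out 1 library put the rise anywhere from 1.68-fold to 56.4-fold over these combinations, and dKO stayed higher in each. The 56.4-fold end came only from the control split of 12.1, 0 and 317. Under the combination without overlap the rise ran from 2.66-fold to 3.91-fold. Which split is the true one was not tested.

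Of 13 granule protease genes, the 4 members included, 3 rose, 4 fell and 6 did not pass. Of the 9 that are not members, 1 rose, 2 fell and 6 did not pass. Such small counts lie near the shares over all tested genes, 15.1% higher and 13.8% lower. Prss34, another basophil protease, also rose. It had 116, 74.4 and 150 normalised counts in the dKO libraries, against 63.2, 7.35 and 38.1 in control libraries. Its means of 113 in dKO and 36.2 in control differed 3.13-fold (adjusted p = 0.00924 from the authors' deposited table). No dKO library lay within the control range. Leaving out the control library with size factor 0.823 gave a 4.99-fold rise, and leaving out any other library gave 2.24-fold to 3.67-fold, the lowest without the control library with size factor 0.952. Mcpt1 and Mcpt2, chymases of mucosal mast cells, both fell. Mcpt2 averaged 25.7 in dKO and 149 in control in the authors' deposited table, and was 5.80-fold lower (adjusted p = 0.000358). Mcpt1 averaged 60.04 in dKO and 220 in control in the authors' deposited table, and was 3.67-fold lower (adjusted p = 0.027). The 3 dKO libraries ran from 53.6 to 72.5 for Mcpt1 and from 12.1 to 33.7 for Mcpt2, all below the control means. The control libraries of Mcpt1 and Mcpt2 could not be separated, so whether the groups overlap is not known. Mcpt4, a chymase of connective tissue mast cells, averaged 55.3 in dKO and 97.5 in control in the authors' deposited table, a difference that did not pass (adjusted p = 0.462). Ctsg, which encodes cathepsin G, averaged 26.0 in dKO and 27.0 in control in the authors' deposited table, which is no called change. The mast cell chymases are close paralogs, so part of their reads may have been shared between them.

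**Figure D2:**
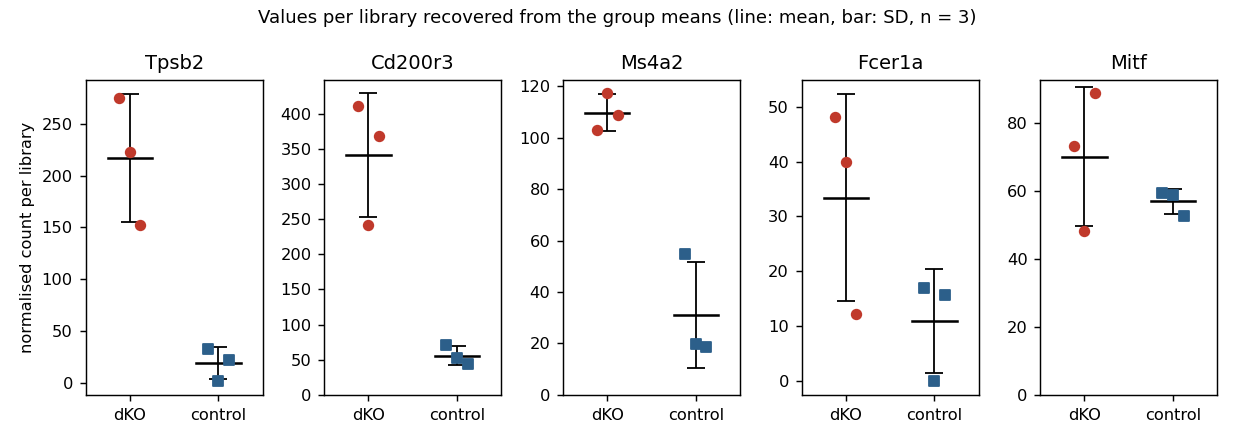
Normalised counts per library of the 5 genes whose reads could be recovered in both groups, dKO left of control in each panel, with a line at the mean and a bar of 1 SD (n = 3). The groups are apart for Tpsb2, Cd200r3 and Ms4a2 and overlap for Fcer1a and Mitf.

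Of the IgE receptor chains, the beta and gamma chains rose in dKO and the alpha chain did not pass. Ms4a2, the beta chain, had 103, 117 and 109 normalised counts in the dKO libraries, against 54.7, 19.95 and 18.5 in the control libraries. Every dKO library exceeded every control library. Its means were 110 ± 7.08 in dKO and 31.1 ± 20.5 in control (SD, n = 3 each). Expression was 3.53-fold higher in dKO (adjusted p = 0.00102 from the authors' deposited table). Leaving out the control library with size factor 0.823, the highest of its group, gave a 5.70-fold rise, and without any other library it ran from 2.94-fold to 3.64-fold. Fcer1a, the alpha chain that binds IgE, had 48.2, 39.99 and 12.1 normalised counts in the dKO libraries, against 17.0, 0 and 15.6 in the control libraries. The lowest dKO library lay below 2 of the control libraries. Its means were 33.4 ± 18.9 in dKO and 10.9 ± 9.44 in control (SD, n = 3 each). The difference did not pass (adjusted p = 0.184 from the authors' deposited table), and the fold of 3.07 ran from 2.05 to 4.28 with 1 library left out.

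Fcer1g, the gamma chain that IgE and IgG receptors and several NK receptors share, averaged 1275 in dKO and 732 in control in the authors' deposited table. It was 1.74-fold higher (adjusted p = 0.0028 from the authors' deposited table), and its values per library could not be recovered. Of 11 Fc receptor chains and adaptors with an activation motif or a like role, the 3 IgE receptor chains included, 5 rose, 2 fell and 4 did not pass. The shares over all tested genes were 15.1% higher and 13.8% lower. Fcgr3, a low-affinity IgG receptor chain that pairs with the gamma chain, averaged 481 in dKO and 272 in control in the authors' deposited table (adjusted p = 0.00167). Cd247, the zeta chain of T cell and NK receptors, rose 3.71-fold and the adaptor gene Hcst 2.23-fold in the authors' deposited table. The inhibitory receptor gene Fcgr2b averaged 69.1 in dKO and 166 in control in the authors' deposited table, and was 2.40-fold lower (adjusted p = 0.00435). Fcgr1, the high-affinity IgG receptor of macrophages, was at 0 in dKO and averaged 13.2 in control in the authors' deposited table. Against a floor of 3 reads over the dKO group, a mean of 0.963, it was at least 13.7-fold lower (adjusted p = 0.0237 from the authors' deposited table). Tyrobp, another adaptor with an activation motif, averaged 1339 in dKO and 1186 in control in the authors' deposited table, a difference that did not pass. NK cell markers, of which 8 of 9 rose, moved with these chains, and their part in the result was not tested.

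Downstream of the receptor more genes fell than rose. Of 17 tested signalling genes, 4 rose, 7 fell and 6 did not pass, against 15.1% higher and 13.8% lower over all tested genes. Their median log2 change was -0.05, close to the -0.02 over all tested genes. Their summed mean was 53852 in dKO and 51673 in control, so the list as a whole did not fall. Plcg2, a phospholipase that acts after the receptor in mast cells, averaged 1849 in dKO and 6385 in control in the authors' deposited table, and was 3.45-fold lower (adjusted p = 2.21e-48). Btk, a kinase that acts with it, averaged 795 in dKO and 2963 in control in the authors' deposited table, and was 3.73-fold lower (adjusted p = 1.3e-22). Rasgrp1, an activator of Ras in T cells and mast cells, averaged 7256 in dKO and 2056 in control in the authors' deposited table, and was 3.53-fold higher. Lcp2, the adaptor SLP-76, rose 1.71-fold in the authors' deposited table. Lat, the membrane adaptor that both T cell and IgE receptors use, averaged 5042 in dKO and 5164 in control in the authors' deposited table, a difference that did not pass. The signalling genes Vav1 and Grb2 did not pass either. The genes of this list work in T and B cell receptor signalling as well.

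Cd200r3, an activating receptor of mouse mast cells and basophils, had the second largest fold of the 10. It had 411, 242 and 369 normalised counts in the dKO libraries, against 70.4, 52.5 and 43.9 in the control libraries. The lowest dKO library stood far above the highest control library. Its means were 341 ± 88.2 in dKO and 55.6 ± 13.5 in control (SD, n = 3 each). Expression was 6.12-fold higher in dKO (adjusted p = 1.69e-09 from the authors' deposited table), and the fold ran from 5.49 to 7.06 with 1 library left out. Its family neighbours Cd200r4 and Cd200r1 were also higher, by 3.92-fold and 3.02-fold in the authors' deposited table. Both were singled out after their values were seen, and the family is similar enough in sequence that reads may have been shared.

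The groups of 3 libraries did not overlap for Tpsb2, Cd200r3 and Ms4a2, all 3 higher in dKO, among the 5 members with values in every library. Among 3149 tested genes with recovered reads in both groups and an average of at least 10, the dKO libraries lay wholly above the control libraries for 22.9% and apart in either direction for 41.4%. The exact permutation test over libraries, 2-sided, gave p = 0.1 for each of these 3 genes, the smallest value that 3 against 3 allows. The same exact test gave p = 0.3 for Fcer1a and p = 0.4 for Mitf.

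**Figure D3:**
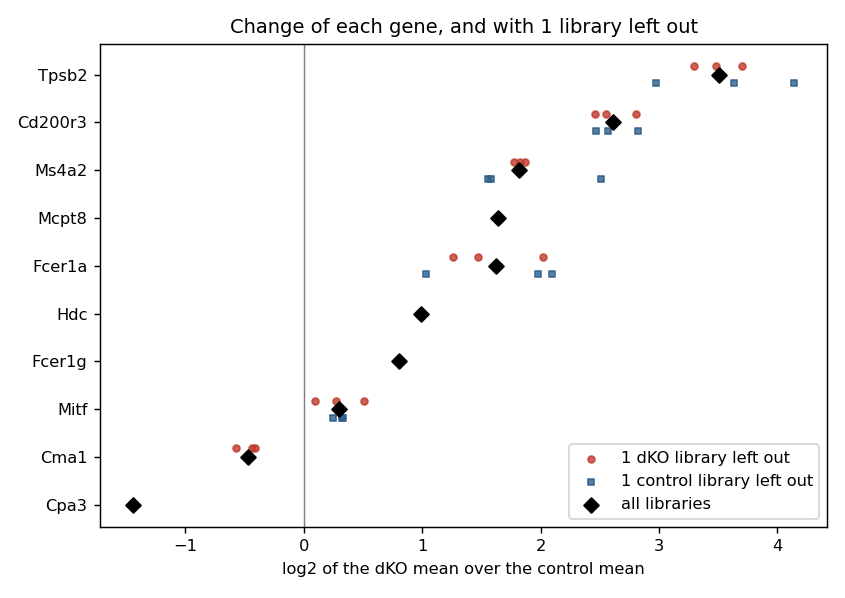
Log2 of the dKO mean over the control mean for each of the 10 genes (diamonds), with the value after leaving out 1 dKO library (circles) or 1 control library (squares) where reads could be recovered. Every point of Tpsb2, Cd200r3, Ms4a2, Fcer1a and Mitf lies right of 0, and every point of Cma1 left of it.

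Among other surface genes of mast cells and basophils, more rose than fell. Of 18 tested, Cd200r3 included, 9 rose, 2 fell and 7 did not pass, and 3 more were at 0 in both groups. Among all tested genes 15.1% were called higher and 13.8% lower, so the 2 falls lay near that share. Those at 0 were Enpp3, a basophil and mast cell ectoenzyme, and Mrgprb1 and Mrgprb2, of which Mrgprb2 is the peptide receptor of mouse connective tissue mast cells. Itgb7, an integrin chain of gut homing and of mast cell progenitors, averaged 26223 in dKO and 7303 in control in the authors' deposited table, and was 3.59-fold higher. Csf2rb, the beta chain shared by the receptors for IL-3, IL-5 and GM-CSF, averaged 1254 in dKO and 548 in control in the authors' deposited table, and was 2.29-fold higher (adjusted p = 9.34e-13). Il3ra, the alpha chain for IL-3, a basophil growth factor, averaged 334 in dKO and 300 in control in the authors' deposited table, a difference that did not pass. Il4ra fell 3.33-fold and Itga2b, an integrin chain of megakaryocytes and of early mast cells, 2.54-fold in the authors' deposited table. The authors' deposited table gave Il1rl1, which binds IL-33 on mast cells and type 2 innate lymphoid cells, means of 1217 in dKO and 866 in control, and it did not pass.

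Hdc, the enzyme that makes histamine from histidine, averaged 1772 in dKO and 892 in control in the authors' deposited table, and was 1.99-fold higher (adjusted p = 5.42e-06). Its values per library could not be recovered. Of 15 genes of mediator synthesis and granule content, Hdc included, 5 rose, 2 fell and 8 did not pass. With 15.1% higher and 13.8% lower over all tested genes, the 2 falls lay near that share. Cyp11a1, the steroid-making enzyme found in some activated T cells and in mast cells, averaged 799 in dKO and 308 in control in the authors' deposited table, and was 2.59-fold higher. Slc18a2, which loads histamine into granules, averaged 1200 in dKO and 738 in control in the authors' deposited table, and was 1.63-fold higher (adjusted p = 0.0347). Alox5, the first enzyme of leukotriene synthesis, had 500, 253 and 572 normalised counts in the dKO libraries, against 173, 67.2 and 98.6 in the control libraries. It rose 3.92-fold (adjusted p = 0.00175 from the authors' deposited table). Ptgs2, the inducible prostaglandin synthase, rose 2.83-fold in the authors' deposited table. Alox5ap, the partner protein of Alox5, fell 1.54-fold in the authors' deposited table, and Ddc, an amine-making decarboxylase, fell 2.54-fold in it. Srgn, the core protein of the granule proteoglycan, averaged 6563 in dKO and 5578 in control in the authors' deposited table, a difference that did not pass (adjusted p = 0.0681).

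Mitf, the helix-loop-helix zipper factor that mast cells need, had 73.2, 48.4 and 89.1 normalised counts in the dKO libraries, against 59.5, 58.8 and 52.7 in the control libraries. The control values fell inside the range of the dKO values. The means were 70.2 ± 20.5 in dKO and 57.0 ± 3.74 in control (SD, n = 3 each). This difference did not pass (adjusted p = 0.782 from the authors' deposited table), and the fold ran from 1.07 to 1.42 with 1 library left out. The related genes Tfe3, Tfeb and Tfec were not analysed here. Of 22 tested transcription factors of mast cells and basophils, Mitf included, 8 rose, 9 fell and 5 did not pass. The shares called over all tested genes were 15.1% higher and 13.8% lower. Gata2, the factor that mast cells and basophils both depend on, averaged 1037 in dKO and 523 in control in the authors' deposited table, and was 1.98-fold higher (adjusted p = 3.3e-08). It was singled out after its values were seen. Gata1, its relative in mast cells, averaged 347 in dKO and 257 in control in the authors' deposited table, a difference that did not pass. Its cofactor gene Zfpm1, with means of 131 in dKO and 134 in control in the authors' deposited table, did not pass either. By the authors' deposited table, Lmo4 rose 6.49-fold and Ikzf2 rose 2.50-fold, whereas Sfpi1, which encodes PU.1, fell 3.62-fold and Runx1 fell 2.22-fold. Tal1, a helix-loop-helix partner of E proteins, averaged 36.6 in dKO and 133 in control in the authors' deposited table, and was 3.63-fold lower. It too was singled out after its values were seen.

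Cytokines that activated mast cells and basophils release mostly rose. Of 14 tested, 9 rose, 1 fell and 4 did not pass, against 15.1% higher and 13.8% lower over all tested genes. Their median log2 change was 2.39, against -0.02 over all tested genes. Il13 had 306, 290 and 361 normalised counts in the dKO libraries, against 27.9, 27.3 and 30.3 in the control libraries, and rose 11.2-fold (adjusted p = 4.72e-21 from the authors' deposited table). Il4, the type 2 cytokine that basophils make in large amounts, had 409, 541 and 606 normalised counts in the dKO libraries, against 76.5, 85.1 and 51.7 in the control libraries. Its rise was 7.30-fold by the authors' deposited table. The libraries of both genes were well apart. Osm, a cytokine of the IL-6 family, averaged 2007 in dKO and 329 in control in the authors' deposited table, and was 6.11-fold higher. The gene that fell was Vegfa, a growth factor of blood vessels, with means of 84.3 in dKO and 511 in control in the authors' deposited table. T cells and type 2 innate lymphoid cells make several of these cytokines too. Markers of type 2 innate lymphoid cells, of which 7 of 9 rose, moved with them, and their part in the result was not tested. That marker list shares Il13, which rose, and Il5, which did not pass, with the cytokine list. The 7 of 9 and the cytokine count are therefore not independent.

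Growth factor receptors of mast cell progenitors and of neighbouring lineages moved in both directions. Of 15 tested, 7 rose, 4 fell and 4 did not pass, against 15.1% higher and 13.8% lower over all tested genes. Kit, Csf2rb, Csf2rb2, Csf2ra, Il3ra and Itga2b are also in the list of surface genes. The counts of these lists are therefore not independent. Il9r, the receptor for a mast cell growth factor, averaged 2076 in dKO and 874 in control in the authors' deposited table, and was 2.37-fold higher (adjusted p = 9.58e-18). Csf1r, the macrophage growth factor receptor, was 3.85-fold lower by the authors' deposited table (adjusted p = 1.17e-16). Flt3, a receptor of early lymphoid and dendritic progenitors, fell 3.31-fold in the authors' deposited table (adjusted p = 1.53e-08).

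**Figure D4:**
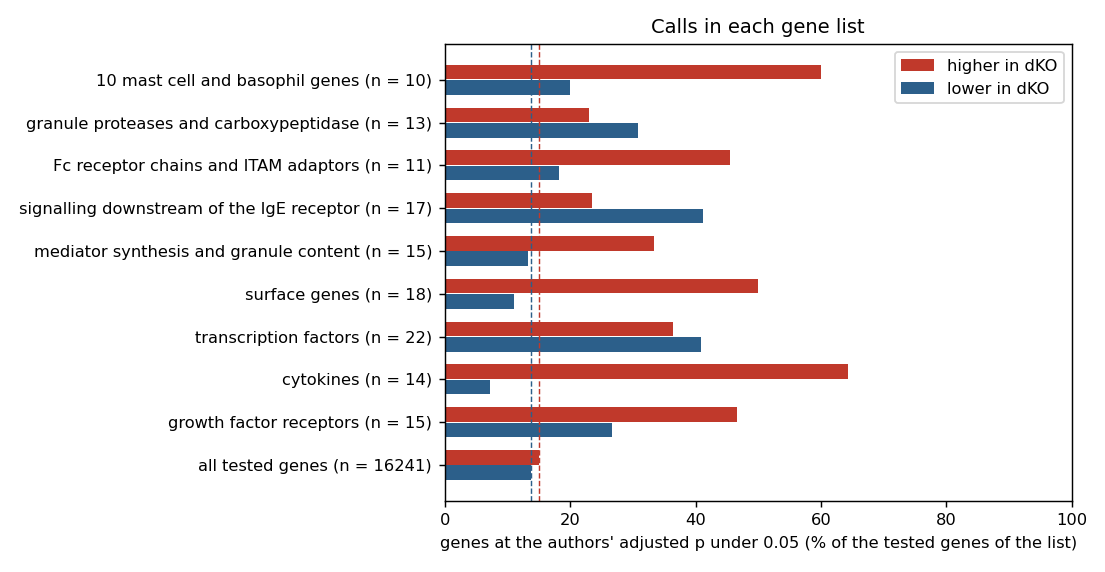
Share of the tested genes of each list called higher (upper bar) or lower (lower bar) in dKO by the same rule, with the number tested beside the name and dashed lines at 15.1% and 13.8%, the shares over all tested genes. The cytokine list has 9 of 14 genes higher, the signalling list 7 of 17 lower.

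Marker lists of other cell types also held called genes, in both directions. Over all tested genes 15.1% were called higher and 13.8% lower. A single called gene in a list of 7 to 9 is close to these shares and says little about that cell type. Of 9 type 2 innate lymphoid markers 7 rose and none fell, and their summed mean was 65598 in dKO and 13961 in control. Most of it came from Icos and Gata3, with 28812 and 22961 in dKO and 4367 and 7051 in control. Of 9 NK cell markers 8 rose and 1, Gzma, fell, with a summed mean of 13294 in dKO and 5733 in control. The largest parts were Gzmb in dKO, 9173, and Gzma in control, 3601. Of 12 tested monocyte and macrophage markers 1, Emr1, rose and 5 fell, with a summed mean of 802 in dKO and 1310 in control and Cd14 at 0 in both groups. Of 7 tested neutrophil markers none rose and 2, Mpo and Prtn3, fell, with a summed mean of 1722 in dKO and 7854 in control, and S100a8, S100a9, Lcn2 and Retnlg were at 0 in both. Mpo alone averaged 1457 in dKO and 7310 in control. Such sums follow the most abundant genes and are not levels of a whole list. Eosinophil markers, which share several genes with basophils, summed to 63.4 in dKO and 129 in control. The 1 of 7 that changed was Il5ra, with 11.6, 9.30 and 11.2 normalised counts in the dKO libraries, against 118, 129 and 98.6 in the control libraries. Of 8 tested megakaryocyte markers 3 fell and none rose, with a summed mean of 792 in dKO and 2659 in control. Of 8 genes listed for later thymocyte stages 6 fell and none rose, with a summed mean of 465 in dKO and 8998 in control. In control, Arpp21, Rag2 and Rag1 had the largest means, 2928, 2363 and 1784 in the authors' deposited table. Cd8a and Cd8b1 did not pass, with means of 27.2 and 0.288 in dKO and 9.51 and 1.1 in control. The sum therefore does not measure double-positive cells. Of 9 tested dendritic cell markers 2 rose and 2 fell. Xcr1 and Ccr7 rose, with means of 369 and 322 in dKO, against 41.7 and 105 in control in the authors' deposited table. Itgax and Flt3 fell, and Itgax averaged 85.0 in dKO and 285 in control in the authors' deposited table. Of 8 tested erythroid markers 1, the globin gene Beta-s, fell, with means of 12.3 in dKO and 1032 in control in the authors' deposited table. The globin genes Hba-a1, Hba-a2, Hbb-b1 and Hbb-b2 were at 0 in both groups. The annotation used is not given, so a gene at 0 in both groups, here or in other lists, need not have been absent. Of 6 tested B cell markers 2 fell and none rose. Among them, Igll1 was at 0 in dKO and averaged 11.5 in control in the authors' deposited table. Of 4 markers that the gate should leave out 1, Cd4, fell, with means of 34.8 in dKO and 104 in control in the authors' deposited table. The gate also excludes CD25, yet RNA of its gene, Il2ra, averaged 8536 in dKO and 8417 in control and did not pass. Il2ra made up most of the summed mean of these 4 markers, which was 8598 in dKO and 8532 in control. Of 9 tested markers of thymic epithelium and stroma 1, Pecam1, fell, with means of 2063 in dKO and 2639 in control in the authors' deposited table. The part of these cell types in the values of the 10 genes was not tested.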

How the data were processed

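RNA was sequenced from 6 libraries, 3 dKO and 3 control, grouped by their labels. Per the labels' protocols, RNA of sorted cells was amplified with a low-input SMARTer kit and sequenced on an Illumina HiSeq, so reads are not independent molecules and floors cover counting error only. Per the submitters' processing notes, the build was mm9 and DESeq version 2, TopHat2 2.0.14 and bcl2fastq 1.8.4 are named with no role. Which counter, annotation and strand setting were used is not given in the sources used here. The 1 deposited table holds, per the file headers, a signal column for each group (the authors' mean normalised count), a fold column (a ratio, dKO over control) and the authors' p-value and adjusted p-value. Redoing the Benjamini-Hochberg adjustment gave the deposited values within 4.08e-07. A gene was called at the authors' adjusted p under 0.05. Of 22609 genes, 6368 are at 0 in both groups and were not tested. A test of counts per library had been foreseen for the case that the table held them. It holds group means, so the authors' own adjusted p was used and no new test across genes was made.

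Each group mean is the average over 3 libraries of whole reads divided by the size factor of the library. The size factors, 1.04, 1.08 and 1.16 in dKO and 0.823, 0.952 and 1.02 in control, were fitted to the low means, and values were searched up to a mean of 600 and, for the 10 genes, beyond it, within the rounding of the 10 digits given. Up to a mean of 100 all values had 1 solution in whole reads (100% of 5361 dKO and 5259 control values), against 0% of random values. Between 100 and 200 it was 100% of dKO and 54.1% of control values, against 3.67% and 2% of random values. Between 200 and 350 it was 92.0% of dKO and 0.197% of control values, against 11.7% and 1.67%. Between 350 and 600 it was 38.7% of dKO values, against 19.7%, and 0% of control values. The rest had several. Simulated means were built from whole reads with the same fitted size factors. A single solution was bound to be right there, so the simulation cannot check the recovered values. Libraries are named by size factor, as the table does not tie them to replicate numbers.

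The members and lists were chosen with earlier results of these data known. By rule the text names all 10 members, the 3 most abundant genes of each list without a call, up to 4 called ones by lowest adjusted p, and any gene in a count of 5 or fewer. Any other gene named was picked with its values in view. Some genes that this rule covers are not reported here. Synonyms were in the lists (Sfpi1, Gpr44, Emr1), and some listed genes were not analysed here. Computations used Python 3.11.15, numpy 2.4.6 and pandas 2.3.3. Thresholds, scaling, pseudocounts and single libraries were varied.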

Additional observations from a re-analysis of the deposited data

How the results depend on the processing

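The counts of the 10 genes called higher in dKO were 6 at an adjusted p under 0.05, 0.01 or 0.10 and with the adjustment redone over genes with a mean of at least 10, and 4 when a fold of at least 2 was also asked for. The count called lower was 2, and 1 at 0.01 or with a fold of at least 2, where Cpa3 stayed and Cma1 did not. Over all tested genes a fold of at least 2 left 1114 higher and 925 lower. At 0.01 the granule proteases had 2 genes lower and the Fc receptor chains 1 lower. With a fold of at least 2 the Fc receptor chains had 3 higher, the signalling genes 1 higher and 3 lower, the mediator genes 3 higher and 1 lower, and the transcription factors 5 higher. These thresholds are stricter by construction. The other 36 counts of genes compared stayed within 1.5 times their value at 0.05. Rescaling the groups to the same total shifts log2 changes by 0.08, and the median of genes with a mean of at least 100 by 0.01. No member changed direction under rescaling, a pseudocount of 1 or 10, or leaving out a library, where it could be run. With 1 library left out the log2 change ran from 2.97 to 4.14 for Tpsb2, 2.46 to 2.82 for Cd200r3, 1.56 to 2.51 for Ms4a2, 1.04 to 2.10 for Fcer1a and 0.09 to 0.51 for Mitf. It could not be run for Cpa3, Hdc and Fcer1g, nor for the control libraries of Cma1. No paired analysis was possible because the table holds group means with no replicate numbers. Calls with a library left out were not run, since they need reads for all genes. At these depths the 3 reads of the floor are a mean of 0.963 in dKO and 1.21 in control.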

Other observations

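Within the control group, the library of size factor 0.952 was the lowest for several mast cell and basophil genes. It held 2.10 normalised counts of Tpsb2, 0 of Fcer1a, 7.35 of Prss34 and 1.05 of Cma2, a mast cell chymase gene. The other 2 control libraries held 32.8 and 22.5 of Tpsb2, 17.0 and 15.6 of Fcer1a, 63.2 and 38.1 of Prss34, and 20.7 and 12.7 of Cma2. Other genes of the lists did not follow this order. The same library had the highest control value of Mcpt4 (141, against 107 and 44.9), of Ccr3, a chemokine receptor of eosinophils and basophils (27.3, against 0 and 1.95), and of Hrh4, a histamine receptor (17.9, against 0 and 13.7). These genes were picked after their values were seen, and the pattern is a description of 3 libraries.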
